A study of Mus musculus with 21 samples.

Results

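High-mobility group box 1 (HMGB1), the receptors that bind it and the adaptors behind them were followed as messenger RNA in mouse neutrophils (PMNs) and renal tubular epithelial cells (TECs). The members were chosen by gene symbol: the ligand gene Hmgb1, the receptors Tlr2, Tlr4, Tlr9, Ager and Trem1, the co-receptors Cd14 and Ly96, and the adaptors Myd88 and Ticam1. All 10 had a gene sum among the 54123 genes in the files. Wildtype mice underwent a sham operation or renal ischemia-reperfusion injury (IRI), a temporary clamp on the vessels of the kidneys followed by reflow, and cells were taken 24 hours later. Remote ischemic preconditioning (RIPC), repeated inflation of a cuff around a hind limb, or a control procedure with a cuff at low pressure preceded the operation. Per the study's methods the animals were male C57BL/6 mice of 8 to 12 weeks, and TECs were isolated from digested kidney with beads against prominin-1. The labels give blood as the source of PMNs and kidney as the source of TECs. RNA-Seq gave 21 libraries. PMNs had 2 after sham and control, 3 after sham and RIPC, 2 after IRI and control, and 3 after IRI and RIPC. TECs had 3 after sham and control, 3 after sham and RIPC, 2 after IRI and control, and 3 after IRI and RIPC. Which members differed after IRI, after RIPC and between the cell types was the question asked of each comparison.

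HMGB1 is a chromatin protein that leaves injured or activated cells and then acts as a danger signal. TLR2, TLR4 and RAGE, the product of Ager, bind it at the cell surface, TLR9 senses DNA in endosomes together with it, and TREM1 amplifies Toll-like receptor responses of myeloid cells. CD14 and MD-2, the product of Ly96, present ligands to TLR4, and MYD88 and TRIF, the product of Ticam1, carry the signal to NF-kB and interferon pathways. Tlr2 and Trem1 are shown by sequence as the receptors with a promoter window that stood higher in every PMN library after IRI than in every PMN library after sham. RefSeq promoter windows, here the 250 bases before the annotated start on GRCm38.p6, were searched for 7 of the 10 members, in 8 windows. No window was searched for Tlr4, Cd14 and Ly96. An NF-kB consensus of 10 bases, sought on both strands, was present in the Tlr2 window alone among these 8, and in 3.90% of the 32851 windows of all genes. The printed Tlr2 stretch ends where the earliest annotated exon of the gene begins, and its capitals mark 2 overlapping NF-kB matches at bases 78 to 88 counted from the 5′ end. The Trem1 window has no match and is printed in lower case throughout. A match is a feature of the sequence and does not show binding.
Tlr2, chr3:83841768-83841858, minus strand: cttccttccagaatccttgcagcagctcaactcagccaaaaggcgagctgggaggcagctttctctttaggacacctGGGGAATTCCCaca
Trem1, chr17:48232489-48232738, plus strand: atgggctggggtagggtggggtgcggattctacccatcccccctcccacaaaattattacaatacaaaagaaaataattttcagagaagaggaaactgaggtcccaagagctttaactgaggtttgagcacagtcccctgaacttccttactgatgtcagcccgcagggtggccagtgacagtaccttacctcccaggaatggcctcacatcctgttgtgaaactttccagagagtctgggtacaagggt

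The libraries held 20881334 to 30507235 estimated reads in PMNs and 21479605 to 51624602 in TECs. Levels are given as CPM, reads scaled to a common normalized library size, in which 3 reads, the limit that a count of 0 allows, equal 0.0748 to 0.156 CPM. That limit covers counting error only, since amplified reads are not independent molecules. It also takes the reads of the 2 files added per library as independent, which they were not. The labelled cell types were checked against 10 marker genes each. All 10 neutrophil markers had reads in PMNs, with a summed level of 6056 to 25498 CPM after sham and 12522 to 33453 CPM after IRI. PMN libraries also held RNA of other cells. The 10 markers of macrophages and monocytes summed to 3191 to 9556 CPM after sham and 1073 to 2220 CPM after IRI. The 10 proximal tubule markers summed to 1233 to 10907 CPM in PMNs after sham, the highest in replicate 2 of the sham control group, and to 535 to 917 CPM after IRI. In TECs, proximal tubule markers summed to 8400 to 16485 CPM after sham and 2585 to 7674 CPM after IRI, and neutrophil markers to 1.62 to 32.4 CPM and 34.5 to 109 CPM. For proximal tubule markers, replicate 2 of the PMN sham control group thus lay within the range of TECs after sham. Fewer cells of a type and less RNA per cell cannot be told apart in such samples.

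**Figure D1:**
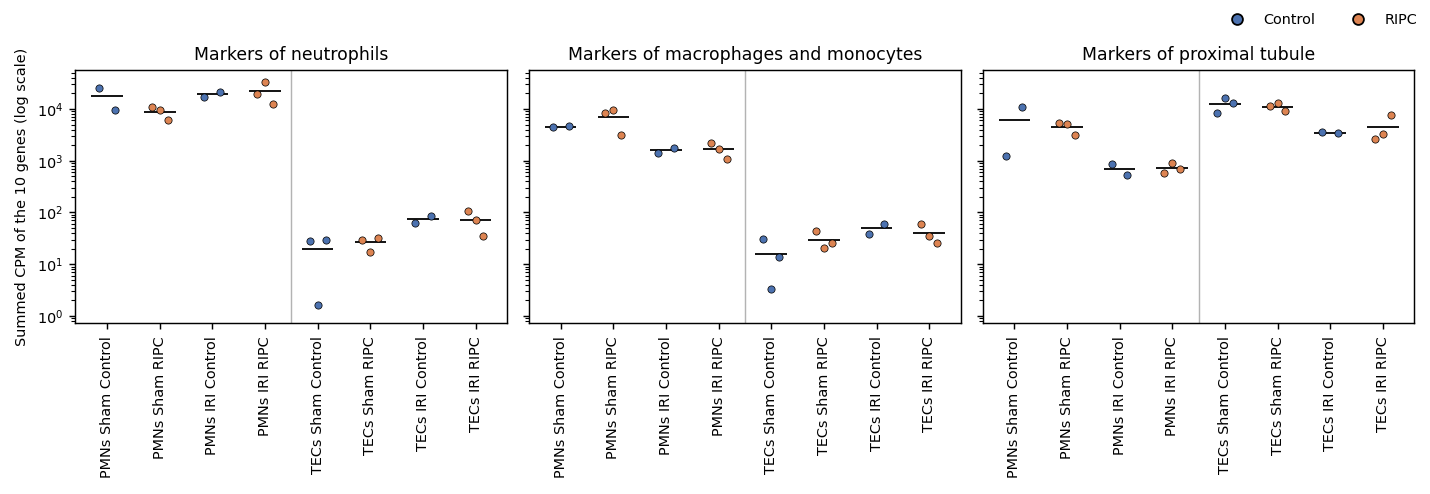
Summed CPM of 10 markers each of neutrophils, macrophages and monocytes, and proximal tubule (y axis, log scale) in the 21 libraries by group; points are libraries and lines group means. In PMNs the macrophage and tubule lists are lower in all 5 libraries after IRI than in the 5 after sham.

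Hmgb1 was abundant in both cell types and did not differ past the threshold in any of the 11 comparisons tested. In PMNs after sham its level was 244 and 141 CPM in the control group and 372, 198 and 192 CPM in the RIPC group. In PMNs after IRI it was 220 and 310 CPM in the control group and 311, 228 and 324 CPM in the RIPC group. The 5 sham and the 5 IRI libraries overlapped, and the log2 fold change was 0.31 (SE 0.33, edgeR adjusted p = 0.742). In TECs after sham Hmgb1 stood at 456, 384 and 299 CPM with control and 323, 275 and 239 CPM with RIPC. In TECs after IRI it stood at 531 and 389 CPM with control and 345, 294 and 358 CPM with RIPC. These libraries overlapped between sham and IRI as well, with a log2 fold change of 0.23 (SE 0.29, edgeR adjusted p = 0.791). Hmgb1 (chr5:149046702-149184489, minus strand, GRCm38) shares sequence with many processed copies. Of its 5032 stretches of 50 bases, 22.7% also occur in 1 or more of 132 other genes, and the reads assigned to its 129 pseudogenes were 13.9% to 35.6% of their sum with Hmgb1. Adding those reads to Hmgb1 left each of its 8 comparisons between groups short of the threshold.

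**Figure D2:**
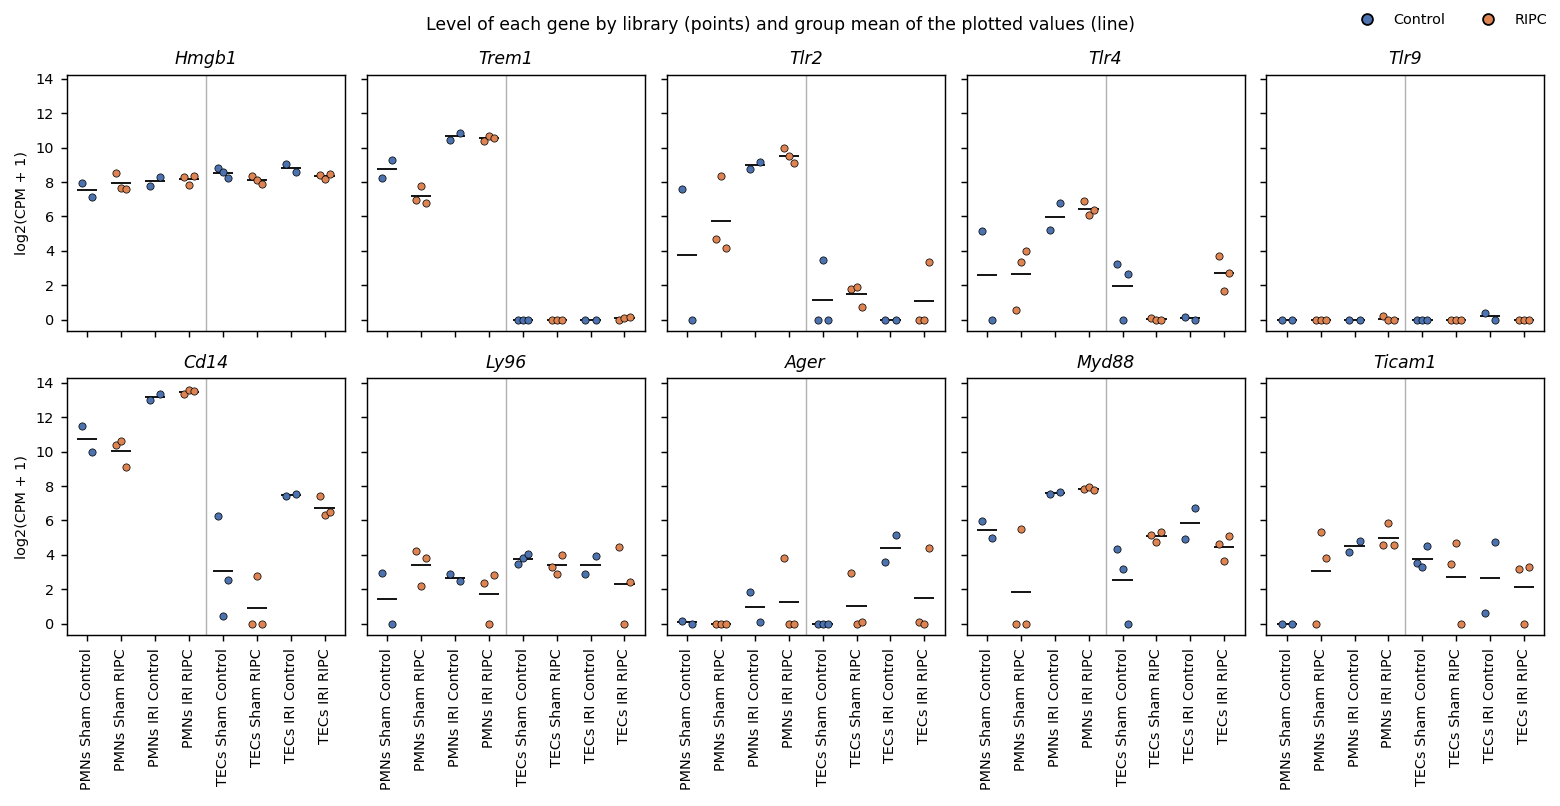
Level of each of the 10 genes as log2(CPM + 1) (y axis) in each library (points) by group, with the group mean of the plotted values (lines); blue is control and orange RIPC. Hmgb1 has reads in every library, Trem1 and Cd14, the 2 members called, are higher in PMNs after IRI, Tlr2, Tlr4 and Myd88 have sham libraries near 0 and did not pass the test, and Trem1 is at or near 0 in TECs.

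The surface receptor Trem1 and the co-receptor Cd14 rose in PMNs after IRI. Trem1 (chr17:48232768-48246924, plus strand, GRCm38) was at 295 and 630 CPM in the sham control libraries and at 125, 215 and 110 CPM in the sham RIPC libraries. After IRI it reached 1418 and 1834 CPM with control and 1355, 1623 and 1496 CPM with RIPC. Every IRI library was above every sham library, with means of 1545 ± 190 (SD, n = 5) and 275 ± 212 CPM (SD, n = 5). The log2 fold change was 2.55 (SE 0.31, edgeR adjusted p = 0.0180). Cd14, which hands lipopolysaccharide and other ligands to TLR4 and is carried by monocytes as well as neutrophils, was at 2926 and 992 CPM in the sham control libraries and at 1334, 1573 and 549 CPM in the sham RIPC libraries. After IRI it was at 8128 and 10380 CPM with control and at 10242, 12156 and 11961 CPM with RIPC. These 5 libraries also stood above all 5 sham libraries, and the log2 fold change was 2.76 (SE 0.38, edgeR adjusted p = 0.0256). Of the 10 members these 2 were called, both higher after IRI, beside 0.416% of the 25002 genes tested in PMNs in either direction and 0.364% called higher. The macrophage and monocyte list was lower after IRI, as given above, while Cd14 was higher. The neutrophil list had a median of 9554 CPM after sham and 19801 CPM after IRI. Replicate 1 of the sham control group, at 25498 CPM, was within the IRI range and the other sham libraries were below it, and the part of any list in these results was not tested. Neither call held when a library of the IRI RIPC group was left out: without replicate 1, 2 or 3 in turn the edgeR adjusted p of Trem1 was 0.0594, 0.0790 and 0.0574 and that of Cd14 was 0.0722, 0.0875 and 0.0678, with log2 fold changes of 2.52 to 2.58 for Trem1 and 2.75 to 2.81 for Cd14. Without replicate 2 of the sham control group, the library with the most tubule RNA, the log2 fold change was 2.94 for Trem1 and 2.53 for Cd14. The other sham libraries still held more tubule marker RNA than any IRI library, and the part of tubule RNA was not tested. The groups without RIPC taken alone, with 2 libraries each, gave an adjusted p of 0.736 for both.

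Tlr2, Tlr4 and the adaptor Myd88 had higher values in PMNs after IRI that did not pass the test. Tlr2 (chr3:83836272-83841767, minus strand) was at 190 and 0 CPM in the sham control libraries and at 25.0, 325 and 17.0 CPM in the sham RIPC libraries. After IRI it was at 425 and 585 CPM with control and at 1015, 720 and 557 CPM with RIPC. The 5 IRI libraries lay above the 5 sham libraries, but the sham libraries ranged from no read to 7127 reads, and the log2 fold change was 2.50 (SE 1.504, edgeR adjusted p = 0.505). Tlr4 (chr4:66827584-66930284, plus strand) was at 35.2 and 0 CPM with sham and control, and at 0.495, 9.34 and 14.9 CPM with sham and RIPC. After IRI Tlr4 was at 35.9 and 109 CPM with control and at 117, 67.4 and 82.8 CPM with RIPC. Replicate 1 of the IRI control group was barely above replicate 1 of the sham control group, and the log2 fold change was 2.73 (SE 1.46, edgeR adjusted p = 0.450). Myd88 (chr9:119335934-119341411, minus strand), the adaptor shared by most Toll-like receptors, was at 60.7 and 30.98 CPM with sham and control and at 0, 45.2 and 0 CPM with sham and RIPC. After IRI Myd88 was at 188 and 204 CPM with control and at 227, 244 and 220 CPM with RIPC, a narrow range well apart from the sham libraries. Its log2 fold change was 2.99 (SE 1.68, edgeR adjusted p = 0.476). These values turned on single sham libraries. Without replicate 1 of the sham control group the fitted log2 fold changes were 9.56 for Tlr2 and 8.58 for Tlr4. Myd88, with replicate 2 of sham and RIPC left out, had an edgeR adjusted p of 0.00933 and a fitted value of 8.75. In each of these a group is left with no read, so that the fitted value depends on the prior count. Replicate 2 of the sham control group, the library with the most tubule RNA, had no read of Tlr2 or Tlr4. Without that library the log2 fold changes were 2.08 for Tlr2 and 2.29 for Tlr4. In all, 5 of the 10 members had IRI libraries that all lay above the sham libraries in PMNs, beside 3.47% of the genes tested. Of the 2616 stretches of 50 bases of Myd88, 7.42% also occur on the opposite strand in the overlapping gene Acaa1a, and without strand in these libraries reads from there cannot be told apart.

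**Figure D3:**
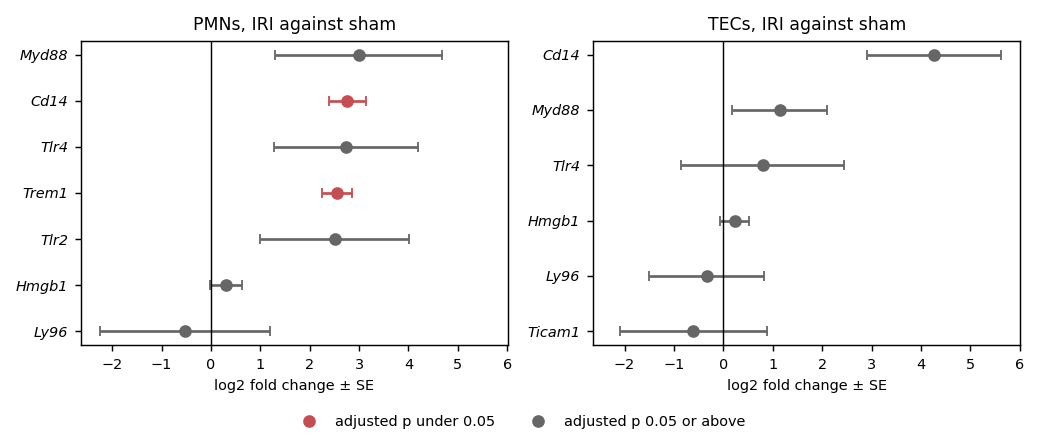
Fitted log2 fold change (x axis, points) with its SE (bars) for IRI against sham in PMNs and in TECs, averaged over RIPC and control; members with a group at 0 in all libraries are left out because their fitted value depends on the prior count. Trem1 and Cd14 in PMNs, in red, passed the adjusted p threshold, and Cd14 in TECs has the highest point of that cell type.

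The remaining members were low or scattered. Ly96, whose product MD-2 completes the TLR4 complex, had 0 to 356 reads in PMNs and 0 to 556 reads in TECs, with more than 3 reads in 8 of 10 and 10 of 11 libraries. Ticam1 had more than 3 reads in 7 of 10 PMN libraries, including all 5 after IRI at 406 to 1262 reads, and was at 0 in both sham control libraries. Its comparison of IRI with sham in PMNs did not pass the test (edgeR adjusted p = 0.302). Ager had more than 3 reads in 2 of 10 PMN libraries and 4 of 11 TEC libraries, up to 750 reads in replicate 2 of TECs after IRI and control. In TECs Ager was at 13.1 ± 14.5 CPM after IRI (SD, n = 5) and 1.12 ± 2.71 CPM after sham (SD, n = 6), with overlap (edgeR adjusted p = 0.194). Tlr9 had 4 reads in a PMN library, 8 reads in a TEC library and none in the other 19, and was not tested. Of the further receptors that the study names for HMGB1, Tlr5 had more than 3 reads in 2 of 10 PMN libraries and 1 of 11 TEC libraries. Cxcr4, a chemokine receptor that binds HMGB1 with CXCL12, had 56 to 2152 reads in PMNs and 0 to 66 reads in TECs, and its log2 fold change in PMNs after IRI was 1.87 (SE 0.69, edgeR adjusted p = 0.390).

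In TECs no member passed the test after IRI, where 1.4% of the 25917 genes tested did. Cd14 came closest. It was at 74.9, 0.349 and 4.85 CPM in the sham control libraries and at 0, 5.84 and 0 CPM in the sham RIPC libraries. After IRI Cd14 was at 171 and 184 CPM with control and at 173, 77.6 and 89.5 CPM with RIPC. The 5 IRI libraries lay above the 6 sham libraries, which 1.59% of the genes tested also did, and the log2 fold change was 4.27 (SE 1.35, edgeR adjusted p = 0.161). Neutrophil markers in TECs were higher in the 5 IRI libraries too, at 34.5 to 109 CPM against 1.62 to 32.4 CPM. Of these markers Ly6g, Camp and Ltf were at 0 in every TEC library after sham, and after IRI Camp alone was. Tubular injury markers (Havcr1, Lcn2 and Krt20) summed to 970 to 1779 CPM in TECs after IRI and 0 to 145 CPM after sham. The sham maximum was in replicate 1 of the control group, the sham library with the highest Cd14. Macrophage and monocyte markers overlapped, at 25.7 to 60.6 CPM after IRI and 3.36 to 43.0 CPM after sham. The part of these lists in the Cd14 values was not tested. Without replicate 2 of the sham RIPC group the edgeR adjusted p was 0.0344. That group was then left with no read, so that the fitted log2 fold change of 8.60 depends on the prior count. Without replicate 1 or 2 of the IRI control group the log2 fold change was 4.29 or 4.25. Myd88 overlapped, at 0 to 39.6 CPM after sham and 11.6 to 106 CPM after IRI, with a log2 fold change of 1.14 (SE 0.96, edgeR adjusted p = 0.642). Tlr4 had more than 3 reads in 2 of 6 TEC libraries after sham, at 201 and 140 reads, and in 3 of 5 after IRI, at 317, 51 and 120 reads.

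RIPC against control left no member past the threshold of the main test in PMNs, where it called 1 of 25002 genes after sham (0.004%) and 0 after IRI (0%). After IRI 0 genes were called at the adjusted p and 0 of the members tested had an unadjusted p under 0.05, while the Wald test of DESeq2 called 426 genes. After sham 2 of the members tested, Trem1 and Ticam1, had an unadjusted p under 0.05. Ticam1 had no read in either control library and 0, 878 and 248 reads in the RIPC libraries, which overlapped (edgeR adjusted p = 0.705). For Trem1 both control libraries, at 295 and 630 CPM, lay above the 3 RIPC libraries, at 110 to 215 CPM, as 12.7% of the genes tested were likewise separated in either direction. The Trem1 log2 fold change was -1.65 (SE 0.40, edgeR adjusted p = 0.705). It was -0.97 without replicate 2 of the sham control group, the library with the most tubule RNA, and -2.13 without replicate 1. DESeq2 with apeglm, the kind of test the study used, gave -1.39 with an s value of 0.00428, under its threshold of 0.01, as for 2.11% of genes. After IRI the Trem1 libraries overlapped, with a log2 fold change of -0.17 (SE 0.40, edgeR adjusted p = 1). The difference between these 2 effects of RIPC was 1.48 (SE 0.58, edgeR adjusted p = 0.719). Cd14 overlapped between RIPC and control after sham (log2 fold change -0.79, SE 0.49, edgeR adjusted p = 0.705) and after IRI (0.27, SE 0.50, edgeR adjusted p = 1). Myd88 after IRI was at 188 and 204 CPM with control and 220 to 244 CPM with RIPC, apart by little, as 16.4% of genes were in either direction (log2 fold change 0.19, SE 2.19, edgeR adjusted p = 1). Hmgb1 had log2 fold changes of 0.37 (SE 0.47, edgeR adjusted p = 0.947) after sham and 0.079 (SE 0.46, edgeR adjusted p = 1) after IRI.

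In TECs RIPC against control also left no member past the threshold, beside 0 of 25917 genes after sham (0%) and 1 after IRI (0.00386%). After sham 0 genes were called at the adjusted p, 2 of the members tested, Ager and Tlr4, had an unadjusted p under 0.05, and the Wald test of DESeq2 called 430 genes. Hmgb1 was lower with RIPC in value after both operations, with log2 fold changes of -0.47 (SE 0.39, edgeR adjusted p = 0.944) after sham and -0.45 (SE 0.43, edgeR adjusted p = 0.911) after IRI. Its control and RIPC libraries overlapped after sham and did not after IRI, a separation that 16.9% of the genes tested had in either direction. Tlr4, the receptor at the centre of the study, was scattered in TECs between 0 and 317 reads. After sham it had 201, 0 and 140 reads with control and 2, 0 and 0 reads with RIPC. After IRI it had 3 and 0 reads with control and 317, 51 and 120 reads with RIPC. The values lay in opposite order after the 2 operations, and neither comparison passed the test (edgeR adjusted p = 0.708 and 0.778, with 5 to 6 libraries each), nor did their difference (edgeR adjusted p = 0.689). Myd88 after sham was at 19.6, 8.20 and 0 CPM with control and at 34.9, 25.5 and 39.6 CPM with RIPC, without overlap, as in 7.83% of the genes tested (log2 fold change 1.82, SE 1.33, edgeR adjusted p = 0.845). Cd14 after IRI overlapped (log2 fold change -0.64, SE 1.81, edgeR adjusted p = 1).

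**Figure D4:**
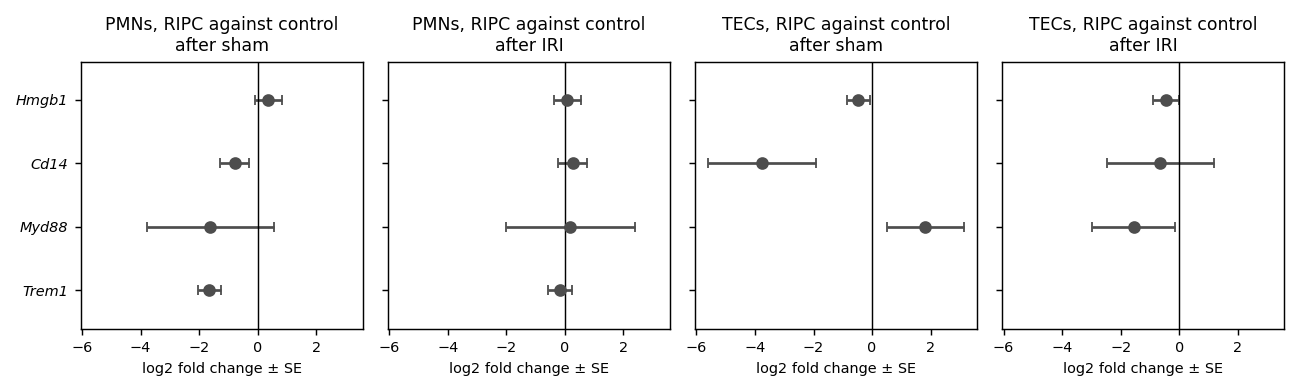
Fitted log2 fold change (x axis, points) with its SE (bars) for RIPC against control in the 4 settings of cell type and operation, for Hmgb1, Cd14, Myd88 and Trem1; Trem1 was not tested in TECs. None of these points passed the adjusted p threshold of 0.05, and Trem1 in PMNs after sham lies at -1.65.

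Between the cell types Trem1 and Cd14 passed the threshold as higher in PMNs after both operations, and Tlr2 passed it after IRI. Hmgb1 did not differ past the threshold. After sham, Trem1 and Cd14 were called of the 10 members, both higher in PMNs, beside 2.62% of 31769 genes in either direction and 1.49% called higher. The same 2 members lay higher in every PMN library than in every TEC library, beside 3.76% of genes. Tlr2 and Tlr4 were also higher in PMNs in mean after sham, with overlap and short of the threshold. Tlr2 was at 111 CPM in PMNs and 2.63 CPM in TECs (log2 difference 5.40, SE 1.83, edgeR adjusted p = 0.139). Tlr4 was at 12.0 and 2.27 CPM, a ratio of means of 5.27 (fitted log2 difference 5.01, SE 1.54, edgeR adjusted p = 0.0932). The fitted difference averages groups on the log scale, and TECs after sham and RIPC had 2, 0 and 0 reads of Tlr4. Trem1 had no read in any of the 6 TEC libraries. Its mean of 275 CPM in PMNs was 2455-fold the level of 3 reads per library in TECs (edgeR adjusted p = 2.76e-07). Cd14 was at 1475 ± 898 CPM in PMNs (SD, n = 5) and 14.3 ± 29.8 CPM in TECs (SD, n = 6), a log2 difference of 7.70 (SE 1.34, edgeR adjusted p = 0.00193). After IRI, Trem1, Cd14 and Tlr2 were called, all 3 higher in PMNs, beside 2.67% of genes in either direction and 1.49% called higher. Trem1 had 0 to 3 reads in TECs after IRI, and its lowest PMN library was at 1355 CPM. Cd14 was at 10573 ± 1624 CPM in PMNs and 139 ± 51.0 CPM in TECs (SD, n = 5 each), a log2 difference of 6.18 (SE 1.44, edgeR adjusted p = 0.0210). Tlr2 was at 660 ± 224 CPM in PMNs (SD, n = 5), while in TECs 4 of 5 libraries had no read and the other had 198 (edgeR adjusted p = 0.0295, and 0.0530 without replicate 1 of TECs after IRI and control). Tlr4 was at 82.4 ± 32.7 CPM in PMNs and 4.00 ± 5.10 CPM in TECs (SD, n = 5 each), without overlap and with a ratio of means of 20.6. Its fitted log2 difference was 6.92 (SE 1.91, edgeR adjusted p = 0.0578), where TECs after IRI and control had 3 and 0 reads. With 1 mean per cell type and operation the Tlr4 difference was 4.36 (SE 1.93, edgeR adjusted p = 0.2045). Myd88 was at 217 ± 21.6 and 41.1 ± 37.5 CPM (SD, n = 5 each), again without overlap, with a log2 difference of 2.42 (SE 1.43, edgeR adjusted p = 0.463). In all, 5 of the 10 members lay higher in every PMN library than in every TEC library after IRI, beside 3.94% of the genes tested. Hmgb1 was lower in PMNs in value, by log2 differences of -0.56 (SE 0.36, edgeR adjusted p = 0.438) after sham and -0.50 (SE 0.38, edgeR adjusted p = 0.633) after IRI.

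Whether the response to IRI itself differed between PMNs and TECs was tested by the interaction of cell type and operation, which called no member and 0 of 31769 genes (0%). At an unadjusted p under 0.05 it held 2 members, and the Wald test of DESeq2 called 2395 genes. For Cd14, which had higher values after IRI in both cell types, the difference of log2 fold changes was -1.52 (SE 1.52, edgeR adjusted p = 1). For Myd88 it was 1.84 (SE 1.88, edgeR adjusted p = 1) and for Tlr2 6.88 (SE 2.92, edgeR adjusted p = 0.431), the last resting on a TEC group without reads.

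Levels of different genes were set side by side only after division by effective length and scaling of each library to a common total. On this length-scaled measure Cd14 led the members in PMNs after IRI at 4916 ± 636 (SD, n = 5). Trem1 followed at 239 ± 29.3, Hmgb1 at 158 ± 36.6, Tlr2 at 140 ± 44.3, Myd88 at 78.6 ± 9.27 and Tlr4 at 12.1 ± 5.73. Trem1 lay above the range of Hmgb1, at 207 to 286 against 113 to 203, whereas Hmgb1 and Tlr2 overlapped at 113 to 203 and 96.1 to 214. These Hmgb1 levels leave out the reads assigned to its pseudogenes, 20.25% to 29.9% of their sum in PMNs after IRI. Whether Trem1 stays above Hmgb1 with those reads added was not tested. In PMNs after sham Cd14 led at 737 ± 501 and Hmgb1 came next at 97.6 ± 38.2 (SD, n = 5 each). In TECs Hmgb1 led both after sham, at 123 ± 30.0 (SD, n = 6), and after IRI, at 147 ± 46.1 (SD, n = 5). Cd14 in TECs, which did not pass the test, was at a length-scaled level of 5.39 ± 10.9 after sham and 58.0 ± 24.6 after IRI, where its highest library remained under the lowest of Hmgb1, at 88.4 against 99.6. Tlr4 in TECs was at 0.342 ± 0.555 after sham and 0.683 ± 0.756 after IRI on the same measure. Among the genes tested, Hmgb1 stood at a percentile of 93.7 or higher in every PMN library and of 97.1 or higher in every TEC library, and Cd14 at 99.0 or higher in every PMN library.

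The wider pathway was represented by 42 further genes in 4 lists: 5 ligands and relatives of HMGB1, 14 other pattern receptors and co-receptors, 15 adaptors and kinases, and 8 inhibitors. In PMNs after IRI 0 of the 41 tested were called by edgeR, beside 0.416% of all genes, with 10 at an unadjusted p under 0.05. Their median log2 fold change was 1.19 against -0.012 over all genes tested. The neutrophil marker list also had a higher median in PMNs after IRI, at 19801 against 9554 CPM, and its part in this shift was not tested. In TECs after IRI 0 of the 39 tested were called higher and 1 lower, beside 1.15% of genes called lower. The median log2 fold change of the 39 was 0.51 against 0.15 over all genes tested in TECs. The gene called lower was Tab1, whose product binds the kinase TAK1. It was at 19.7 ± 14.5 CPM after sham (SD, n = 6) and 0.631 ± 0.908 CPM after IRI (SD, n = 5, edgeR adjusted p = 0.0410). The RIPC comparisons called 0 of these genes in either cell type by edgeR, with 1 and 0 in PMNs and 1 and 4 in TECs at an unadjusted p under 0.05 after sham and IRI. Between the cell types 7 of 41 were called after sham and 9 of 41 after IRI, all higher in PMNs, beside 1.49% of all genes tested called higher after each operation. The 4 with the smallest p were the same after both operations: the calprotectin subunits S100a8 and S100a9, alarmins that signal through TLR4 and RAGE and that also stand in the neutrophil marker list, the adaptor Tyrobp, which carries the TREM1 signal, and the kinase Syk behind it. Tyrobp was at 982 ± 204 CPM in PMNs after sham (SD, n = 5) and 0.553 ± 1.00 CPM in TECs (SD, n = 6), and at 1313 ± 273 and 3.48 ± 5.95 CPM after IRI (SD, n = 5 each). Syk was at 67.8 ± 40.7 CPM in PMNs after sham and 390 ± 105 CPM after IRI (SD, n = 5 each), and at or under 1.92 CPM in every TEC library. S100a8 was at 4968 ± 2793 CPM in PMNs after sham and 5405 ± 2370 CPM after IRI (SD, n = 5 each), and S100a9 at 4197 ± 2338 and 5489 ± 2176 CPM.

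As a description of co-variation, the protein-coding genes whose log2(CPM + 1) followed Hmgb1 most closely over the 21 libraries were Pa2g4 (Pearson r = 0.87), Serbp1 (0.82) and Ggnbp2 (0.82), of 18566 compared. For Tlr4 they were Isg20 (0.91), Rmc1 (0.90) and Bcl2l11 (0.89). The points share the split into 2 cell types and their depth, and such correlations are not independent of either.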

How the data were processed

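RNA-Seq was performed on PMNs and TECs, 21 libraries in 8 groups, which the study describes as biological replicates. Here 5 groups hold 3 libraries and 3 hold 2, fewer than the methods give. Per the labels and methods, the authors trimmed single-end reads with Trim Galore 0.6.4 and quantified them with Salmon 1.0.0 against a Gencode mouse transcriptome (mm10). What the authors deposited for each library is a pair of files (2) with Salmon's estimated counts for every transcript, not normalized. The authors also deposited TPM values, which were not used, and effective lengths, used for length-scaled levels and an offset. The 2 files agreed more closely than independent counts would (median squared difference over sum 0.0182 to 0.0846 against 0.455), so adding them did not double the independent reads.

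Estimated counts of both files were added over the transcripts of a gene (Gencode M21, GRCm38, where the methods name vM23; 884 of 140748 transcripts unmatched, 0.139% to 0.255% of reads) and rounded. Members and lists were chosen with earlier results of these data known. Text names every member, pathway genes past the threshold with the 4 smallest p per direction, and the 3 genes most alike Hmgb1 and Tlr4. The main test was edgeR 4.0.16 (quasi-likelihood F test, TMM, filterByExpr, a mean per group; R 4.3.3, limma 3.58.1) within a cell type, or on all 21 libraries between cell types, without sex-chromosome and mitochondrial genes. Benjamini-Hochberg adjusted p under 0.05 over all genes tested was the threshold. IRI was compared with sham averaged over RIPC and control. Tlr9 passed no filter on low counts, and Trem1 did not in TECs, so 9, 8 and 9 members were tested in PMNs, in TECs and between them. Alternatives were other scalings, filters, files, offsets and blocks, leaving out libraries, and DESeq2 1.42.0 with or without apeglm 1.24.0. Promoter windows are RefSeq's.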

Additional observations from a re-analysis of the deposited data

How the results depend on the processing

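Hmgb1 stayed short of the threshold in the 8 comparisons between groups under every alternative run. After IRI in PMNs the number of members called, 2 in the main test, was 0 with the groups without RIPC alone, 5 without a filter on low counts, and 0 to 4 when 1 library was left out (0 without replicate 1, 2 or 3 of the IRI RIPC group, 4 without replicate 1 of the sham control group). In TECs after IRI it was 2 without the filter and 0 to 1 when 1 library was left out, against 0. For RIPC after sham, against 0, it was 1 in PMNs without the filter (Ticam1), 1 with the Wald test of DESeq2 (Ticam1) and 1 with apeglm (Trem1), and 1 in TECs without the filter (Cd14) and 1 with the Wald test (Tlr4). Between the cell types after sham, against 2, it was 5 without the filter, 4 with the Wald test and 2 to 4 when 1 library was left out (4 without replicate 2 of the PMN sham control group); after IRI, against 3, it was 5 with the compared groups alone, which added Tlr4 (edgeR adjusted p = 0.00549) and Myd88 (0.0224). Tlr4 was also called there without the filter, with either file alone, with the replicate block, with the Wald test and without replicate 1 of the PMN IRI control group, and its adjusted p over all alternatives ran up to 0.216. Requiring 10 reads in every library gave 0 in both, because it removes members with a library at 0. For the interaction of cell type and IRI, against 0, it was 2 without the filter and 2 with the Wald test, and for the change of the RIPC effect 1 in PMNs and 1 in TECs with the Wald test. The cause was not tested for the other settings.

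Values short of the threshold changed sign as follows. Myd88 in TECs after IRI was -0.55 with the groups with RIPC alone. Hmgb1 in PMNs for RIPC after IRI was -0.0041 with an offset for length. With 1 library left out, the RIPC fold changes in PMNs spanned -0.013 to 0.78 for Hmgb1 and -1.34 to 0.16 for Cd14 after sham, and -0.14 to 0.37 for Hmgb1 and -0.33 to 0.053 for Trem1 after IRI.

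Same-numbered replicates did not deviate together (1 of 66 correlations over 0.1), so the numbers were not taken as pairs. With the replicate block, 1 member (Trem1) was called in PMNs after IRI, Cd14 in TECs for RIPC after IRI was 0.59, and the genes called in PMNs after IRI numbered 23 against 104.

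Counts over all genes moved further. In PMNs after IRI, 104 became 0 and 62 with the groups without and with RIPC alone, 444 with 10 reads in every library, 971 without the filter, 1942 with the Wald test and 13 to 393 with 1 library left out. In TECs, 363 became 1 and 25, 683, 1289, 2234 and 92 to 714. The RIPC comparisons, at 0 or 1, reached 426 to 817 with the Wald test, and between the cell types 832 and 847 became 4753 and 3725. DESeq2 size factors shifted the median log2 fold change of 14 well-covered genes by 0.13 in TECs after IRI and by at most 0.15 elsewhere. The groups with and without RIPC alone, a mean per cell type and operation, and Hmgb1 with its pseudogenes were chosen after seeing the data. Tlr9, Ager and, in TECs, Tlr2, Tlr4 and Trem1 had 3 reads or fewer in many libraries. Among such libraries a difference was not detectable at this depth.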

Other observations

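Reads of Hmgb1 were spread over several transcripts, which was outside the comparisons above. Hmgb1-201 took 47.6% of its reads in PMNs and 39.5% in TECs, and Hmgb1-203 took 37.3% and 43.8%. Over libraries the share of Hmgb1-203 ranged from 0% to 53.5% in PMNs and from 29.0% to 56.3% in TECs. Hmgb1-202 took 1.99% of the reads in PMNs and 6.28% in TECs. No test was run on these shares, which are Salmon's division of reads among overlapping transcripts.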
